A study of Mus musculus with 9 samples.

Results

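Arginine methylation of proteins was followed here through the transcripts of 10 mouse genes: the protein arginine methyltransferases Prmt1, Prmt2, Prmt3, Prmt5, Prmt6, Prmt7, Prmt8 and Carm1, and Wdr77 and Clns1a, which encode proteins that work with PRMT5. They were taken by gene symbol from a table of 46078 genes, and each symbol matched 1 row. Transcript 3′ ends had been sequenced in 6 lymphoma libraries and 3 control libraries. The lymphoma libraries came from thymus and were labelled as T cell lymphoma cells induced by MYCN, a transcription factor of the MYC family. The control libraries were labelled as CD4+ T cells and came from spleen. The strain of both groups was C57BL/6J, and the labels gave no treatment, age, sex or cell sorting and did not name the transgene or the promoter that drives it. Nor did they say whether a library came from 1 animal or from a pool. Libraries are called by their labels' numbers, lymphoma 34, 53, 56, 70, 72 and 86 and CD4 1, 2 and 3. The comparison that the design implies is lymphoma against CD4, and tissue differed together with the disease state throughout.

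Protein arginine methyltransferases move methyl groups from S-adenosylmethionine to the side chain of arginine in histones, RNA-binding proteins and splicing factors. Type I enzymes (PRMT1, PRMT2, PRMT3, PRMT6, PRMT8 and CARM1) leave asymmetric dimethylarginine, and PRMT1 accounts for most of it. Type II activity, the symmetric form, is mainly the work of PRMT5, while PRMT7 makes monomethylarginine only. PRMT5 acts in a complex with WDR77 (also called MEP50). Interchangeable adaptors bring substrates to that complex: pICln, the product of Clns1a, brings the Sm proteins of the spliceosome, and RIOK1, which competes with pICln for the same place, brings nucleolin. PRMT5 is known as a gene activated by MYC proteins in lymphoma models and as an enzyme needed for splicing in cells with high MYC.

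MYC-family proteins bind the E-box letters CACGTG, so the promoters are shown with that motif marked. RefSeq promoter windows (build GRCm38.p6), from 250 bases before to 50 after each start, were found for Riok1 and for all of the genes but Carm1. The motif is its own reverse complement. It stood once in the windows of Prmt1, Prmt3, Wdr77 and Clns1a, at positions -181, -13, 10 and -114 from the start, and was not among the letters of the windows of Prmt5, Prmt2, Prmt6, Prmt7, Prmt8 and Riok1. Of all 32851 promoter windows in the table, 7.15% held it. The GC box GGGCGG, searched on both strands (CCGCCC on the other), stood in the windows of Prmt1, Prmt2, Prmt3, Prmt7, Prmt8 and Wdr77 and in 35.7% of all windows. These motifs share no bases in the windows, and a match of letters is a description, not a bound site. The runs below hold the bases before the outermost annotated start, and CACGTG is in capitals. The Prmt3 run goes on past that start, which its motif spans, and for Wdr77 a short stretch around the motif is given. They are Prmt1 at chr7:44986569-44986670 (minus strand), Prmt3 at chr7:49778108-49778362 (plus), Wdr77 at chr3:105959495-105959524 (plus), Clns1a at chr7:97696407-97696633 (plus) and, as the enzyme gene without the motif, Prmt5 at chr14:54517526-54517720 (minus).
Prmt1: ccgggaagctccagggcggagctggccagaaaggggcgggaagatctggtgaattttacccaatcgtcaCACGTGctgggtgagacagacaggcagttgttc
Prmt3: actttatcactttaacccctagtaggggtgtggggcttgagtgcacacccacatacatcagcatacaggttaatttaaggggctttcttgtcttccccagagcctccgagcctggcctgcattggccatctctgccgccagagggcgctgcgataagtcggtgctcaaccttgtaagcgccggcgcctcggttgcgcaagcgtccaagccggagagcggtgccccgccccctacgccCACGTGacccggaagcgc
Wdr77: gcagaggtacacCACGTGtgcggtccctcc
Clns1a: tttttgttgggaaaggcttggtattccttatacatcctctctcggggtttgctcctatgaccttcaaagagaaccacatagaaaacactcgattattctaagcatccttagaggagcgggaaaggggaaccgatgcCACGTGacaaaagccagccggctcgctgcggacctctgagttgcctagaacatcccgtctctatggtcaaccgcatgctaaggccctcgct
Prmt5: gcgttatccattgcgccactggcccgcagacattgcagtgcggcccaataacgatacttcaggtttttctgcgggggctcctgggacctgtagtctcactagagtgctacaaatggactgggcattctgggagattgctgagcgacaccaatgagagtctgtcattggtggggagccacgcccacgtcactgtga

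Reads counted in genes ranged from 11170704 to 15769679 per lymphoma library and from 8099960 to 10808828 per CD4 library. Levels are given as CPM, counts scaled to a common library total (the usual counts per 1000000) after TMM normalisation. Proliferation markers summed to 4187 to 5745 CPM in lymphoma and 473 to 626 in CD4, with 20 of 20 higher. B cell markers summed to 6.85 to 13.4 CPM in lymphoma but 1254 to 1514 in CD4 (10 of 10 lower in lymphoma), and plasmacytoid dendritic cell markers to 0.387 to 17.8 and 174 to 222 (3 of 4 lower). No marker of either list was at 0 in every lymphoma. The T cell list summed to 1552 to 2350.3 CPM in lymphoma and 2486 to 2661 in CD4 (1 of 11 higher and 2 lower). Cd4 itself lay at 6.04 to 71.9 CPM in lymphoma and 199 to 263 in CD4. Cd8a lay at 25.6 to 31.8 CPM in CD4 and Cd8b1 at 35.9 to 44.9. In lymphoma 53 they lay at 29.4 and 47.6 CPM, and in the other lymphomas at no more than 1.53 and 0.735. Myeloid markers summed to 48.8 to 2142 CPM in lymphoma and 509 to 646 in CD4, with 0 of 10 higher and 4 lower. Erythroid markers summed to 13.6 to 46.7 CPM in lymphoma and 1.1 to 5.53 in CD4 (1 of 5 tested higher), and stromal and thymic epithelial markers to 38.2 to 99.4 and 28.8 to 36 (2 of 5 tested higher). Xist lay at 4.66 to 11.3 CPM in lymphoma and 493 to 582 in CD4, and the Y-linked Ddx3y at 119 to 178 and 0.191 to 0.734. By the marker sums above, the libraries labelled CD4 also held transcripts of other cell types, and B cell markers were far higher in them than in lymphoma. Sex, tissue, cell make-up and disease state therefore cannot be told apart. Mycn had 0 to 3 counts in lymphoma and 0 to 6 in CD4, and a row for the transgene was not among those analysed.

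Transcripts of 7 of the 10 genes were higher in lymphoma, 1 was lower and 2 had too few counts to be tested. The 7 were Prmt5, Prmt1, Clns1a, Wdr77, Prmt6, Prmt7 and Prmt3, in falling order of change from 4.89-fold to 1.87-fold, and the gene that was lower was Prmt2, by 3.17-fold. Carm1 and Prmt8 did not pass the filter on low counts. All 8 tested genes passed edgeR's quasi-likelihood test at a Benjamini-Hochberg adjusted p under 0.05, a threshold that 46.6% of the 15401 tested genes passed (24.7% as higher and 21.9% as lower). The libraries of the groups did not overlap in CPM at any of the 8, as was so for 44.9% of tested genes. Every tested gene of the set had at least 19 counts in each library, so none entered through 1 group alone. At an adjusted p under 0.01, which 31.9% of tested genes passed, Prmt6 was no longer called. In RNA from bulk cells, a lower level through fewer cells of a type and through less RNA per cell cannot be told apart. The part of proliferation, other cell types, sex and tissue in these differences was not tested.

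**Figure D1:**
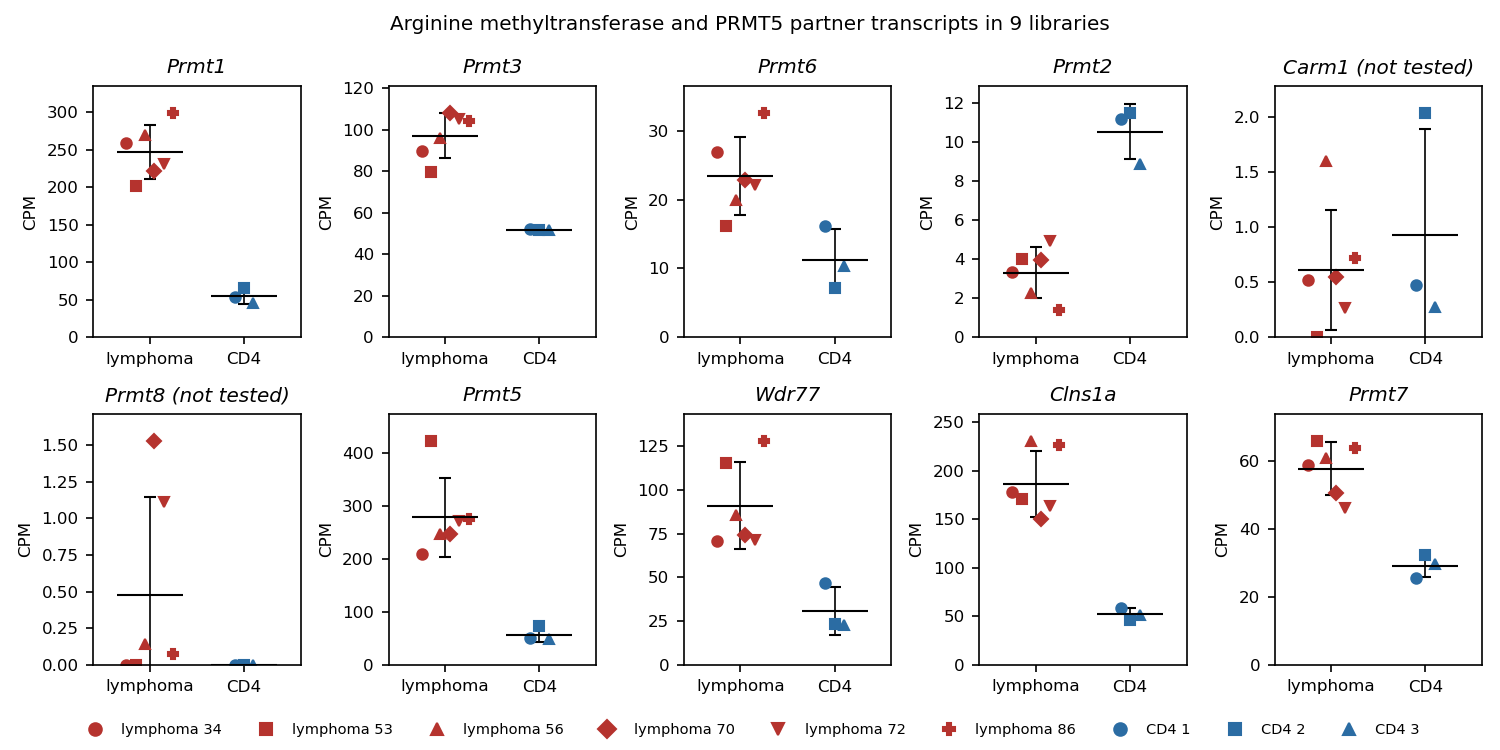
Level of each of the 10 transcripts in CPM (vertical axis, linear, from 0, scaled to each gene) in 6 lymphoma and 3 CD4 libraries. Each symbol is 1 library, the bar is the group mean and the whisker 1 SD; the lymphomas lie above all CD4 libraries for 7 genes and below them for Prmt2, while Carm1 and Prmt8 stay at or under 2.04 CPM.

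Prmt5 (ENSMUSG00000023110, chr14:54507187-54517525, minus strand), the type II enzyme, lay at 210.0, 424, 247, 247, 273 and 276 CPM in lymphomas 34, 53, 56, 70, 72 and 86. CD4 1, 2 and 3 had 50.1, 73.1 and 48.2 CPM. Every lymphoma was far above every CD4 library, and lymphoma 53 stood apart from the other lymphomas at the top. The means were 279 ± 74.6 (SD, n = 6) and 57.1 ± 13.9 CPM (SD, n = 3), so that the log2 fold change came to 2.29 (SE 0.254, edgeR adjusted p 2.48e-05). Without lymphoma 53 the log2 fold change was 2.13 (adjusted p 1.78e-06). No exon of another gene overlapped the last 500 bases of the transcript, where reads from 3′ ends fall.

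Wdr77 (ENSMUSG00000000561, chr3:105959369-105970037, plus strand), the constant partner of PRMT5, had 71, 115, 85.7, 74.2, 71.3 and 128 CPM in lymphomas 34, 53, 56, 70, 72 and 86. In CD4 1, 2 and 3 it had 46.8, 23.4 and 22.6 CPM. Lymphomas 53 and 86 were highest, and CD4 1 was high among the controls yet below all lymphomas. The log2 fold change was 1.55 (SE 0.302, 2.94-fold, edgeR adjusted p 0.0013), and it was 1.99 without CD4 1. Clns1a (ENSMUSG00000025439, chr7:97696634-97720796, plus strand), which encodes the Sm protein adaptor pICln, had 178, 171, 231, 149.9, 164 and 227 CPM in the same order of lymphomas. Its CD4 values were 58.7, 46.2 and 51.8 CPM. The groups lay well apart, with lymphomas 56 and 86 at the top, and the log2 fold change was 1.84 (SE 0.197, 3.57-fold, edgeR adjusted p 1.9e-05).

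Whether the partners kept pace with the enzyme was examined through ratios of CPM within each library, 5 in all. A ratio serves only for comparing libraries, because counts of different genes are not on one scale. For Wdr77 over Prmt5 the ratio ran from 0.262 to 0.465 in lymphoma and from 0.32 to 0.933 in CD4, with overlap. The mean log2 ratio differed by -0.68 (exact two-sided permutation p = 0.143, Benjamini-Hochberg adjusted over the 5 ratios 0.238). For Clns1a over Prmt5 it ran from 0.403 to 0.934 and from 0.632 to 1.17, again with overlap, and the log2 difference was -0.46 (exact permutation p = 0.214, adjusted 0.268). Neither difference passed the test, and each moved when a single control was left out. For Wdr77 over Prmt5 it was -0.26 without CD4 1 and -1.03 without CD4 2, and for Clns1a over Prmt5 it was -0.29 and -0.73. These values do not show that the partners rose in proportion to the enzyme.

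The gene of the other adaptor was examined in the same way. Riok1 (ENSMUSG00000021428, chr13:38036995-38061433, plus strand) had 131 to 168 CPM in lymphoma (median 151) and 92.6 to 135 in CD4 (median 102). The groups overlapped, and the change in log2 units, 0.46 (SE 0.165, 1.38-fold, edgeR adjusted p 0.0367), was lost in 6 of 17 other settings, among them without CD4 1 (0.37, adjusted p 0.124) and without CD4 2 (0.42, adjusted p 0.123). The ratio of Riok1 to Prmt5 was 0.626, 0.356, 0.608, 0.683, 0.524 and 0.596 in the lymphomas, in the same order, and 1.85, 1.39 and 2.81 in CD4 1, 2 and 3. All lymphomas lay below all CD4 libraries, by -1.80 on the log2 scale. The ratio of Clns1a to Riok1 was 1.35, 1.13, 1.53, 0.889, 1.15 and 1.38 in the lymphomas and 0.633, 0.455 and 0.383 in CD4. It was higher in all lymphomas, by 1.35 on the log2 scale. Both ratios share Riok1 and restate the changes of single genes given above, so they are not independent results. The share of all gene pairs that separate the groups was not examined. Each of these ratios reached an exact two-sided permutation p of 0.0238, the smallest that these groups allow. After adjustment over the 5 ratios it was 0.0595, which misses the threshold of 0.05. With the other ratios as they were, no larger difference in these could have given a lower adjusted value. The miss therefore says nothing on the size of the differences.

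**Figure D2:**
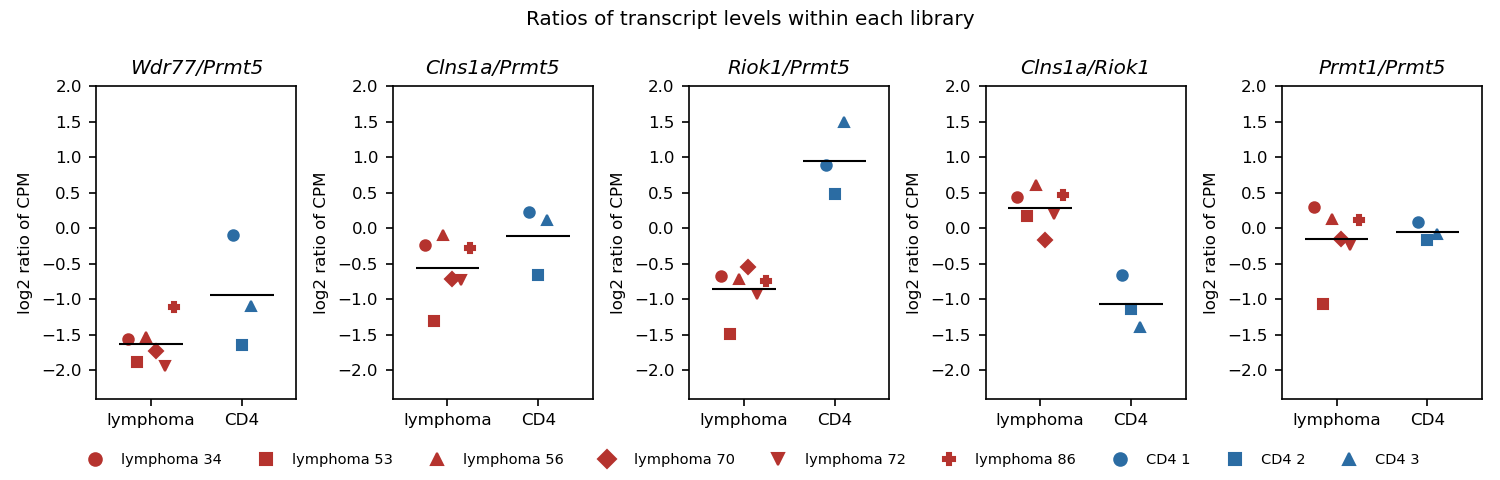
Log2 ratio of CPM between gene pairs (vertical axis) in each library, one panel a pair, with a bar at the group mean. Riok1/Prmt5 and Clns1a/Riok1 separate the 6 lymphomas from the 3 CD4 libraries, by -1.80 and 1.35, and the other pairs overlap.

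Prmt1, the main type I enzyme, was 4.53-fold higher, beside 4.89-fold for Prmt5. Lymphomas 34, 53, 56, 70, 72 and 86 had 259, 202, 269, 221, 231 and 299 CPM, while CD4 1, 2 and 3 had 53.1, 65.4 and 45.3 CPM. The lowest lymphoma was far above the highest CD4 library. The means were 247 ± 35.5 (SD, n = 6) and 54.6 ± 10.1 CPM (SD, n = 3), and the log2 fold change was 2.18 (SE 0.194, edgeR adjusted p 4.91e-06). Its ID in the table, ENSMUSG00000052429, was not in GENCODE M21, where the gene of that symbol lies at chr7:44975989-44986568 on the minus strand. The ratio of Prmt1 to Prmt5 ran from 0.477 to 1.23 in lymphoma and from 0.895 to 1.06 in CD4. The mean log2 ratio differed by -0.10 (exact permutation p = 0.952, adjusted 0.952), and the sign turned to 0.09 (exact permutation p = 0.607) without lymphoma 53. That library held the highest Prmt5 and the lowest Prmt1 of the lymphomas.

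Of the other type I enzymes, Prmt3 and Prmt6 were higher in lymphoma as well. Prmt3 (ENSMUSG00000030505, chr7:49778346-49858265, plus strand), a cytoplasmic enzyme that methylates the ribosomal protein encoded by Rps2, had 89.7, 79.7, 96, 108, 105 and 104 CPM in the lymphomas, again in order, against 51.9, 51.6 and 51.6 CPM in CD4. The control libraries were nearly equal and all lymphomas lay above them; the log2 fold change was 0.91 (SE 0.156, 1.87-fold, edgeR adjusted p 0.000572). Prmt6 (ENSMUSG00000049300, chr3:110246109-110250998, minus strand), a nuclear enzyme that methylates the tail of histone H3, had 26.9, 16.2, 19.9, 22.9, 22.1 and 32.6 CPM in the same lymphomas and 16.1, 7.2 and 10.3 CPM in CD4. Lymphoma 53 lay just above CD4 1, so the groups were barely apart. The log2 fold change was 1.06 (SE 0.31, 2.09-fold, edgeR adjusted p 0.0144). The call was lost without CD4 2 (0.83, adjusted p 0.0669) and without CD4 3 (1.01, adjusted p 0.0552).

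Prmt2 (ENSMUSG00000020230, chr10:76207222-76237865, minus strand), an enzyme of weak activity known as a coactivator of nuclear receptors, was the only one of the 8 tested genes that was lower in lymphoma. It had 3.35, 4.02, 2.26, 3.98, 4.91 and 1.37 CPM in lymphomas 34, 53, 56, 70, 72 and 86, from 19 to 75 counts. CD4 1, 2 and 3 had 11.2, 11.5 and 8.9 CPM, from 96 to 117 counts. All lymphomas lay below all CD4 libraries, lymphoma 86 lowest. The log2 fold change was -1.66 (SE 0.404, edgeR adjusted p 0.00526) and ranged from -1.81 to -1.47 over 17 other settings, past the threshold in each. In the last 500 bases of the transcript, 84 also lie in the same-strand microRNA gene Mir678, which had 0 counts in each library. The B cell and dendritic cell markers given above moved in the same direction as Prmt2, and their part was not tested.

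Prmt7 (ENSMUSG00000060098, chr8:106210936-106252794, plus strand), the monomethylating enzyme, had 58.8, 65.9, 60.9, 50.5, 46 and 63.8 CPM in lymphomas 34, 53, 56, 70, 72 and 86. The CD4 values were 25.5, 32.4 and 29.7 CPM. All lymphomas were above all controls, lymphomas 70 and 72 least so, and the log2 fold change was 0.98 (SE 0.179, 1.97-fold, edgeR adjusted p 0.000866). Of the last 500 bases of its transcript, 247 overlap exons of Smpd3 on the other strand. Smpd3 had 4 to 24 counts per library and did not pass the test (log2 fold change -0.28, edgeR adjusted p 0.814).

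Carm1 (ENSMUSG00000032185, chr9:21546894-21592623, plus strand), a type I enzyme that acts as a transcriptional coactivator, was hardly counted at all. Lymphomas 34, 53, 56, 70, 72 and 86 held 8, 0, 22, 9, 4 and 10 of its reads, and CD4 1, 2 and 3 held 5, 17 and 3. The groups overlapped, and in a fit without the filter the log2 fold change was -0.56 (SE 1.13, edgeR adjusted p 0.715), so no difference was detectable at this depth. Its annotation bears on how far these counts can be read. The last exon of its longest coding transcript, chr9:21588049-21589487, is 1439 bases long, and the final 806 of them overlap the gene Yipf2 (chr9:21588682-21592828) on the minus strand. The overlap takes in all of the last 500 bases of that transcript. Yipf2 had 4, 2, 2, 12, 24 and 17 counts in the lymphomas and 0 in each CD4 library. Counting software can set reads in such an overlap aside as ambiguous when strand is not used, and the strand setting is not given in the sources used here. Ambiguous reads made up 3.74% to 5.07% of lymphoma and 4.69% to 5.96% of CD4 reads, and their part in the low Carm1 count was not tested. The level of Carm1 was therefore not read as low expression.

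**Figure D3:**
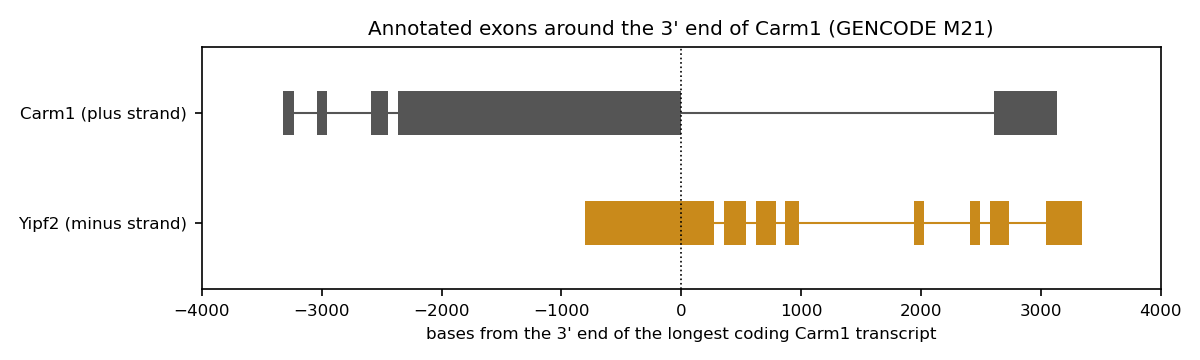
Exons of all annotated transcripts of Carm1 and of Yipf2 (boxes; GENCODE M21) by distance in bases from the 3′ end of the longest coding Carm1 transcript (0, dotted). Yipf2, on the opposite strand, covers the final 806 bases of the Carm1 last exon.

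Prmt8 (ENSMUSG00000030350, chr6:127689011-127769472, minus strand), a membrane-anchored relative of PRMT1 known from brain, had 0 counts in lymphomas 34 and 53, 2 in lymphoma 56, 25 in lymphoma 70, 17 in lymphoma 72 and 1 in lymphoma 86. It had 0 in all CD4 libraries, where a count of 0 allows up to 0.275 to 0.36 CPM. Lymphomas 70 and 72 thus stood alone, at 1.53 and 1.11 CPM. In a fit without the filter the groups did not differ past the threshold (edgeR adjusted p 0.0829). Limits of this kind cover counting error only.

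Variation among the lymphomas was below the median of tested genes for most of the set. The SD of log2 CPM over the 6 lymphomas was 0.17 for Prmt3, 0.20 for Prmt7, 0.21 for Prmt1, 0.26 for Clns1a, 0.34 for Prmt5, 0.35 for Prmt6 and 0.37 for Wdr77. These 7 lay under the median of all tested genes, 0.47, while Prmt2, at 0.64, lay above it. Without lymphoma 53 that median was 0.34, and Wdr77 (0.36) lay above it as well as Prmt2 (0.69). Average log2 CPM was 2.54 for Prmt2 and 4.29 to 7.68 for the other 7 genes. Neither median was matched for expression level, and the part of level in the spread was not tested. The lymphomas did not keep one order across the set. Lymphoma 86 had the highest Prmt1, Prmt6 and Wdr77 and the lowest Prmt2, whereas lymphoma 53 had the highest Prmt5 and Prmt7 and the lowest Prmt1, Prmt3 and Prmt6.

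The genes around arginine methylation were described by lists, each read against all tested genes, of which 24.7% were higher, 21.9% were lower and the median log2 fold change was 0.04. Of 3 further arginine methyltransferases, 1 was higher. This was Ndufaf7, a mitochondrial enzyme needed for complex I assembly, with 25.4 to 43.6 CPM in lymphoma and 8.4 to 11 in CD4 (log2 fold change 1.71, SE 0.245, edgeR adjusted p 0.00016). Prmt9, which methylates a splicing factor and is listed in the table as Prmt10, had a log2 fold change of 0.22 (edgeR adjusted p 0.434). Mettl23 had -0.46 (edgeR adjusted p 0.0616) and passed the threshold in 8 of 17 other settings, among them without lymphoma 53 (-0.49, adjusted p 0.0343), without lymphoma 86 (-0.50, adjusted p 0.0401) and without CD4 2 (-0.58, adjusted p 0.045). Coprs, an adaptor that directs PRMT5 to histones, had 1.05 to 10.5 CPM in lymphoma and 0.826 to 2.86 in CD4 and did not pass (1.46, SE 0.824, edgeR adjusted p 0.169).

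Transcripts of the Sm proteins and SMN complex and of substrates of the type I enzymes were mostly higher. The first of these lists is not limited to proteins that PRMT5 methylates. Of 20 Sm protein and SMN complex genes, 15 were higher and 0 lower, with a median log2 fold change of 1.29. The Sm proteins carrying symmetric dimethylarginine tails include those of Snrpd1, with 372 to 527 CPM in lymphoma and 68.2 to 118 in CD4 (log2 fold change 2.31, SE 0.211, edgeR adjusted p 6.14e-06), Snrpb (1.77, SE 0.17, adjusted p 8.71e-06) and Snrpd3 (1.30, SE 0.17, adjusted p 8.23e-05). Smn1, whose product binds those methylated tails, was higher as well (1.41, SE 0.206, edgeR adjusted p 0.000182). Of 20 RNA-binding and repair substrates of type I enzymes, 15 were higher and 0 lower, with a median of 1.03. Fbl, the nucleolar RNA methyltransferase fibrillarin, had 201 to 445 CPM in lymphoma and 49.9 to 67.8 in CD4 (2.31, SE 0.285, edgeR adjusted p 5.28e-05). Ncl, nucleolin, was 4.25-fold higher (edgeR adjusted p 0.000126) and Rps2 2.39-fold higher (adjusted p 0.00176). Multi-mapping reads were not counted for any gene, which leaves genes with near-identical copies, such as Rps2, uncertain. The proliferation markers given above moved with both lists, and their part was not tested.

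The list around CARM1 was divided. Of its 12 genes 6 were higher and 5 lower, and the median log2 fold change was -0.08. The 5 that were lower were the nuclear receptor coactivators Ncoa1 (-1.15), Ncoa2 (-1.18) and Ncoa3 (-1.24) and the acetyltransferases Crebbp (-1.11) and Ep300 (-0.95), which CARM1 works with at promoters. Ncoa3 had 26.8 to 36.1 CPM in lymphoma and 60.5 to 84.5 in CD4 (SE 0.166, edgeR adjusted p 9.73e-05). The fall was between 1.93-fold and 2.36-fold for these 5, without overlap of the groups. The 6 that were higher included Smarcc1, a chromatin remodelling subunit that CARM1 methylates, with 688 to 925 CPM in lymphoma and 153 to 174 in CD4 (2.30, SE 0.16, edgeR adjusted p 7.88e-07).

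**Figure D4:**
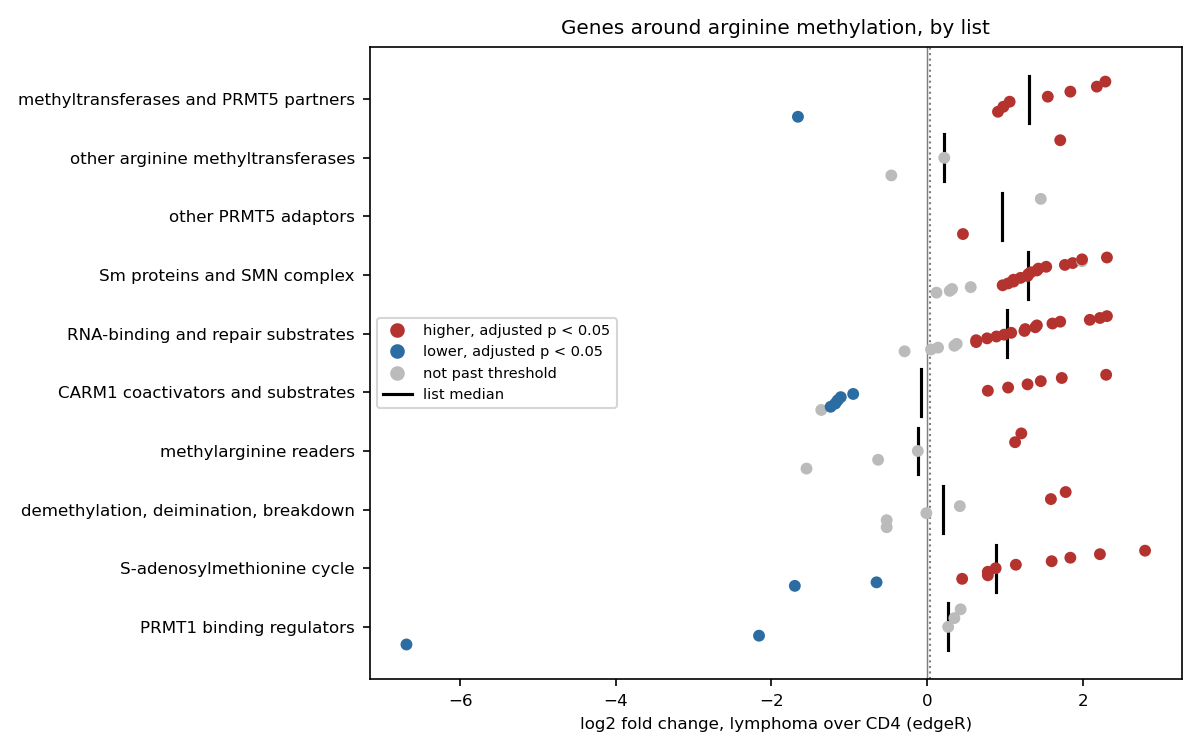
Log2 fold change of lymphoma over CD4 (horizontal axis, edgeR) for each tested gene of the 10 lists, 1 row a list; red and blue points passed the adjusted threshold as higher and lower, grey did not. The black bar is the list median and the dotted line the median of all tested genes, 0.04; the CARM1 list splits, and Btg1 lies alone at -6.69.

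Enzymes that supply and clear the methyl donor changed in 11 of 11 tested genes of 12, with 9 higher, 2 lower and a median of 0.88. Ahcy, which removes the inhibitory product S-adenosylhomocysteine, had 14 to 31.6 CPM in lymphoma and 1.91 to 4.32 in CD4 (log2 fold change 2.80, SE 0.398, edgeR adjusted p 0.000145). Mtap, which clears methylthioadenosine, an inhibitor of PRMT5, was 3.57-fold higher (edgeR adjusted p 0.000322), and Mat2a, which makes S-adenosylmethionine, 1.72-fold higher (adjusted p 0.00117). The genes that were lower were Ahcyl2, a relative of Ahcy (-1.70, SE 0.194, edgeR adjusted p 2.95e-05), and Mat2b, the regulatory subunit of MAT2A (-0.65, SE 0.207, edgeR adjusted p 0.0227). The call of Mat2b was lost without CD4 2 (-0.66, adjusted p 0.0623) and without CD4 3 (-0.47, adjusted p 0.138).

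Of 5 genes whose products bind or regulate PRMT1, 0 were higher and 2 lower, with a median of 0.27. Btg1, an antiproliferative protein of resting lymphocytes, had 7.13 to 13.4 CPM in lymphoma and 544 to 1773 in CD4 (log2 fold change -6.69, SE 0.34, edgeR adjusted p 1.99e-07). Its relative Btg2 had 31.9 to 72.3 and 167 to 319 CPM (-2.16, SE 0.277, edgeR adjusted p 6.94e-05). Of 8 readers of methylarginine 5 were tested and 2 were higher, Snd1 (1.21, SE 0.234, edgeR adjusted p 0.00123) and Tdrd3 (1.13, SE 0.406, adjusted p 0.0378), with a median of -0.12. The call of Tdrd3 was lost without lymphoma 34, 70 or 72 and without CD4 1 or 3, at adjusted p from 0.0541 to 0.125. Of 9 genes for demethylation, deimination and breakdown of free methylarginine 6 were tested and 2 were higher, with a median of 0.21. These were the deiminases Padi3 (1.78, SE 0.615, edgeR adjusted p 0.0323) and Padi1 (1.59, SE 0.573, adjusted p 0.0388). Padi3 was lost without CD4 2 (1.98, adjusted p 0.0627) or CD4 3 (1.34, adjusted p 0.0994), and Padi1 was lost without any 1 of lymphomas 56, 70, 72 and 86 or of the CD4 libraries (1.45 to 1.82, adjusted p 0.0545 to 0.106).

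The genes whose log2 CPM followed Prmt5 most closely over the 9 libraries, among 9423 ranked genes, were Hjurp (Pearson r 0.992), AI662270 (0.992), Cdca5 (0.99), Ppid (0.989) and Bmp7 (0.988). Of the other tested genes of the set, r was 0.95 for Prmt7 (rank 512), 0.94 for Prmt1 (rank 571), 0.92 for Clns1a (rank 952), 0.89 for Prmt3 (rank 1439), 0.88 for Wdr77 (rank 1503), 0.68 for Prmt6 (rank 3172) and -0.80 for Prmt2. The libraries share 2 groups that differ in Prmt5, so r follows the group difference first, and no test was made. The nearest 5 were not stable: without lymphoma 53 or without CD4 3, 0 of them were again among the nearest 5.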

How the data were processed

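The deposited table holds raw read counts per Ensembl gene, made by the authors with HISAT2 and HTSeq, per the submitters' processing notes, which also name FastQC, SAMtools and the builds mm10 and GRCm38. Versions, annotation and strand setting are not given in the sources used here. RNA was extracted with a Maxwell RSC kit and libraries were standard Illumina, per the labels' protocols. The 5 summary rows were not used in any fit; reads in genes were 38.7% to 49.1% of lymphoma and 27.8% to 35% of CD4 reads. Columns without a matching sample numbered 0.

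The test was edgeR 4.0.16 under R 4.3.3 (filterByExpr with minimum count 10, TMM, robust glmQLFit and glmQLFTest, 9 libraries, no covariate). P-values were adjusted by Benjamini-Hochberg over 15401 genes at 0.05. Standard errors are the absolute log2 fold change over the square root of F. Likeness to Prmt5 used log2 CPM (prior count 2) of genes averaging at least 3. Ratios were compared by exact permutation of 84 assignments (scipy 1.17.1). Positions are from GENCODE M21 (GRCm38), matched by Ensembl ID, by symbol for Prmt1. A count of 0 allows up to 3 counts. The edgeR fit was run on simulated counts with planted changes, drawn with the dispersions of these data. The check was only that the median fitted change lay near the planted one, and no limit was set on false calls. Alternatives were RLE, upper quartile and library size scaling, DESeq2 1.42.0, limma voom 3.58.1, other filters, each library left out, and lymphomas 34, 70 and 72 averaged. The labels give no subgroup of lymphomas, so this averaging does not mean that the averaged libraries share a tumour or animal.

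The genes and lists were chosen with earlier results of these data known. The genes named from a list are those that rose most and fell most past the threshold, lists of 3 genes or fewer in full, and the 5 genes most like Prmt5. Ncoa1, Ncoa2, Crebbp, Ep300, Btg2, Tdrd3, Mat2b, Padi1, Snrpb, Snrpd3, Smn1, Mtap, Mat2a, Ncl, Rps2, Cd8a and Cd8b1 were named after their values were seen. Where the labels do not say that libraries came from separate animals, p-values measure only the spread between these libraries.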

Additional observations from a re-analysis of the deposited data

Results flagged for a closer look

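In 5 of 49 transcripts examined, 1 of the 6 lymphomas lay far from the other 5, by Dixon's criterion at the 95% level; about 2.45 such cases arise by chance. In 4 of the 5 the library was lymphoma 53. Prmt5 lay at 424 CPM in lymphoma 53 and at 210.0 to 276 in the others. Ppid lay at 252 CPM there against 131 to 176, Bmp7 at 99.6 against 46.6 to 66.5, and Padi3 at 14.3 against 4.15 to 5.93. Ppid and Bmp7 were picked for following Prmt5, so they are not independent of it. Ncoa3 was highest in lymphoma 86, at 36.1 CPM against 26.8 to 29.5.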

How the results depend on the processing

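The number of genes of the set called higher was 6 or 7 and the number called lower was 1 in each of 17 alternatives and at an adjusted p under 0.01. With the stricter threshold 2595 genes were higher and 2320 lower in all, against 3798 and 3376. The lists of Sm and SMN genes and of RNA-binding substrates kept their counts and medians within 1.5 times or the spread. Short lists moved. For the CARM1 list the median was -0.19 with upper quartile scaling and -0.16 to 0.00 with 1 library left out (0.00 without CD4 2). For readers, 1 gene was higher with upper quartile scaling, 1 with lymphomas 34, 70 and 72 averaged and 1 to 2 with 1 library left out; 1 was lower with DESeq2, 1 with limma voom, 1 with the averaged lymphomas and 0 to 1 with 1 library left out; the median was 1.08 when 10 counts were required in all libraries, which tested fewer genes. For demethylation and deimination, 1 was higher with upper quartile scaling, limma voom, no filter or the averaged lymphomas, 0 under the filter of 10 counts in all libraries and 0 to 2 with 1 library left out (0 without CD4 2 or CD4 3); the median was 0.67 with limma voom and -0.57 under that filter. For the S-adenosylmethionine list 1 to 2 were lower with 1 library left out and the median was 0.78 to 1.17 (1.17 without CD4 2). For PRMT1 regulators 0 to 1 were higher (1 without lymphoma 53). The Prmt1 to Prmt5 log2 ratio ranged from -0.19 to 0.09, reversed to 0.09 without lymphoma 53. Other causes were not tested. No paired analysis was possible because the groups share no replicate numbers. With 3 CD4 libraries, exact tests cannot go below 0.0238, and Carm1 and Prmt8, with at most 22 and 25 counts in a library, could be compared only without the filter on low counts.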
